A study of Homo sapiens with 12 samples.

Results

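Small leucine-rich proteoglycans are secreted matrix proteins whose cores carry leucine-rich repeats. The genes described here are DCN, LUM, BGN, FMOD, ASPN, OGN, PRELP, OMD and ECM2, 9 of the 60617 gene rows counted in each library, and they were taken from the count files by their Ensembl identifiers. The set was selected on results of these same libraries, so its values and its counts past a threshold are a description in every comparison, and no p of a member is used as support. Of the 9 genes, 6 (DCN, LUM, BGN, FMOD, PRELP and ECM2) averaged at least 1 count per library and were among the 22756 genes in the fit.

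Gene expression was read by RNA-seq in 12Z, an immortalized human line of endometriotic epithelial cells, to ask how mutant PIK3CA and insulin alter gene expression. All 12 libraries came from cells that received non-targeting siRNA and then, transiently, a pBabe plasmid. The groups were PIK3CA*H1047R with insulin, PIK3CA*H1047R with vehicle, empty vector (control) with insulin, and control with vehicle, with 3 libraries each that the study describes as independent experiments. Serum was withdrawn for 4 h before 100 nM insulin or its vehicle was given for 24 h. A transient plasmid reaches only some cells and is read here on top of the cells' own PIK3CA, and all results rest on 1 cell line.

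In tissue, small leucine-rich proteoglycans bind collagen fibrils and set their diameter and spacing, and several of them bind growth factors such as TGF-β or signal through receptors on the cell surface. Decorin and biglycan (DCN, BGN) carry chondroitin or dermatan sulfate chains, whereas lumican, fibromodulin and osteomodulin (LUM, FMOD, OMD) can carry keratan sulfate. Fibroblasts and other stromal cells are the best known source of decorin and lumican, and both are abundant in the stroma of the endometrium and of endometriotic lesions.

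Levels are given in CPM, gene counts scaled to a common library total with the TMM factors of edgeR. PIK3CA, which checks the labels, was read at 714 to 734 CPM in H1047R cells with insulin and at 180, 215 and 312 CPM in H1047R cells with vehicle, against 80.9 to 85.9 CPM in control cells with insulin and 88.2 to 89.0 CPM in control cells with vehicle. Plasmid transcripts and transcripts of the cells' own gene cannot be told apart in these counts. H1047R cells with insulin and with vehicle thus differed in PIK3CA level as well as in insulin. The 2 cannot be told apart in that comparison, which is called insulin in H1047R cells below. H1047R vehicle replicate 1 had the highest PIK3CA of its group, and 12.5 CPM of RSAD2 against 2.22 and 3.40 CPM in the other 2 libraries of that group. Total counts ran from 30071951 to 37918025 in H1047R cells with insulin and from 21483124 to 29255708 in the other 9 libraries. The share of reads placed at several sites was 8.48 to 9.51% in H1047R cells with insulin and 13.6 to 15.4% in the other libraries, and its part in the results was not tested.

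The epithelial label was checked against 10 epithelial and 10 stromal markers. KRT8, KRT18 and KRT19 were abundant, with group means of KRT8 between 1393 and 1452 CPM, and KRT7 (48.5 to 62.5 CPM) and MUC1 (9.14 to 9.76 CPM) were read at lower levels. The other 5 epithelial markers were lower still, with group means of 0.0795 to 0.0913 CPM for ESRP1, 0.364 to 0.679 CPM for CLDN3, 0.434 to 0.873 CPM for EPCAM, 1.34 to 2.12 CPM for CLDN4 and 1.23 to 2.22 CPM for CDH1, which encodes E-cadherin. The stromal markers ranged from VIM, the intermediate filament of mesenchymal cells, at group means of 1759 to 2292 CPM, and COL1A1, at 1995 to 2955 CPM, down to PDGFRA at 13.2 to 18.1 CPM and FAP at 3.80 to 5.59 CPM.

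Sequences near the start sites are shown for BGN and ECM2, 2 members whose levels behaved differently, and for PODN, a family member outside the set that is described below. Each is the RefSeq window from 250 bases before to 50 bases after the annotated start on GRCh38.p14, written from 5′ to 3′ on the strand of the gene. RefSeq windows matched 6 of the 9 members (BGN, FMOD, ASPN, OGN, PRELP and ECM2). Capitals mark matches, on either strand, to a GC box (GGGCGG) in BGN and PODN and to an ISRE motif in ECM2.
BGN: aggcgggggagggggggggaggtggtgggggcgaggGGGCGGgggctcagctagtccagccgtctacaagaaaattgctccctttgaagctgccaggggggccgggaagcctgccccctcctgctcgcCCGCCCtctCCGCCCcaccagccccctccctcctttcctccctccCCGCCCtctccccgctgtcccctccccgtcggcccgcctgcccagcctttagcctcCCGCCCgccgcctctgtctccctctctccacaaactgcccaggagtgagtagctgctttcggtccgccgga
ECM2: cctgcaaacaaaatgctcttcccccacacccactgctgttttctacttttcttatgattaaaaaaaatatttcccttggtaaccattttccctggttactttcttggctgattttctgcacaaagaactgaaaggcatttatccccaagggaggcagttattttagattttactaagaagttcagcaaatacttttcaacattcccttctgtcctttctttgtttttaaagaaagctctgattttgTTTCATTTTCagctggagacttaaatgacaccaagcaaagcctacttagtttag
PODN: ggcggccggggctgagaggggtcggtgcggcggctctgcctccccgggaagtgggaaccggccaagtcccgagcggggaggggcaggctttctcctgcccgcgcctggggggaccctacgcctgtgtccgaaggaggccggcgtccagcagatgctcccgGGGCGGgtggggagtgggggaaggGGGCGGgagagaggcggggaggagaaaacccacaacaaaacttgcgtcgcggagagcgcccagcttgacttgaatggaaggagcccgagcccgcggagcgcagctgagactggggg
The BGN window lies at chrX:153494730-153495029 on the plus strand, the ECM2 window at chr9:92535941-92536240 on the minus strand and the PODN window at chr1:53061963-53062262 on the plus strand. The BGN and PODN windows each held 71.7% G and C and had 5 and 2 GC boxes, and the ECM2 window held 36.3% G and C, beside a median of 58.7% over 35116 RefSeq windows of the same length. A GC box was found in 45.0% of those windows and the ISRE motif in 3.57%. TATAAA, searched as a TATA box, was found in 11.5% of all windows, in FMOD and in OGN among the members. TGTTTAC, searched as a FOXO motif and found in 3.42% of all windows, and TGANTCA, searched as an AP-1 motif and found in 7.71%, had no match in the windows of the 6 members. A match is a description of the letters only, and the motifs did not overlap in the 3 windows shown.

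The members lie in a few clusters of the genome (GENCODE annotation on hg38). DCN (chr12:91140484-91183217) and LUM (chr12:91102629-91111494) are neighbours on the minus strand of chromosome 12, 28990 bases apart, followed by KERA and EPYC. FMOD and PRELP lie 124048 bases apart on chromosome 1. OGN, OMD, ASPN and ECM2 follow each other on the minus strand of chromosome 9, within the span of CENPP (chr9:92325953-92620529), which encodes a centromere protein and is read from the other strand. BGN (chrX:153494980-153509546) overlaps the start of HAUS7 on the opposite strand. Counts were taken by strand, so reads of CENPP and HAUS7 were kept from these genes as far as the strand-marking kit allows.

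Levels within the set were far apart. Division by the length of the canonical transcript makes levels of different genes roughly comparable. LUM was then the highest member in control cells with vehicle at 149 CPM per kb, followed by DCN at 14.6 and BGN at 2.84. The lengths used were 2671, 6850 and 2353 bases, and which transcripts the cells made was not measured. Without division by length, LUM was 398 CPM and DCN 99.9 CPM in that group. ECM2 (0.293), FMOD (0.207) and PRELP (0.122 CPM per kb) were lower still. The order LUM, DCN, BGN was kept in H1047R cells with insulin, at 30.2, 1.34 and 0.799 CPM per kb. ASPN, the collagen-binding protein asporin, and OGN, osteoglycin, had 1 count each in all 12 libraries together, and OMD had 0 counts in every library. A count of 0 allows up to 3 counts per library, that is 0.0791 to 0.140 CPM, and for counting error only. CENPP, which spans these 3 genes, was read at 30.2 ± 1.16 CPM in H1047R cells with insulin, 29.4 ± 1.76 CPM in H1047R cells with vehicle, 29.1 ± 0.934 CPM in control cells with insulin and 28.4 ± 1.23 CPM in control cells with vehicle (SD, n = 3 each).

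**Figure D1:**
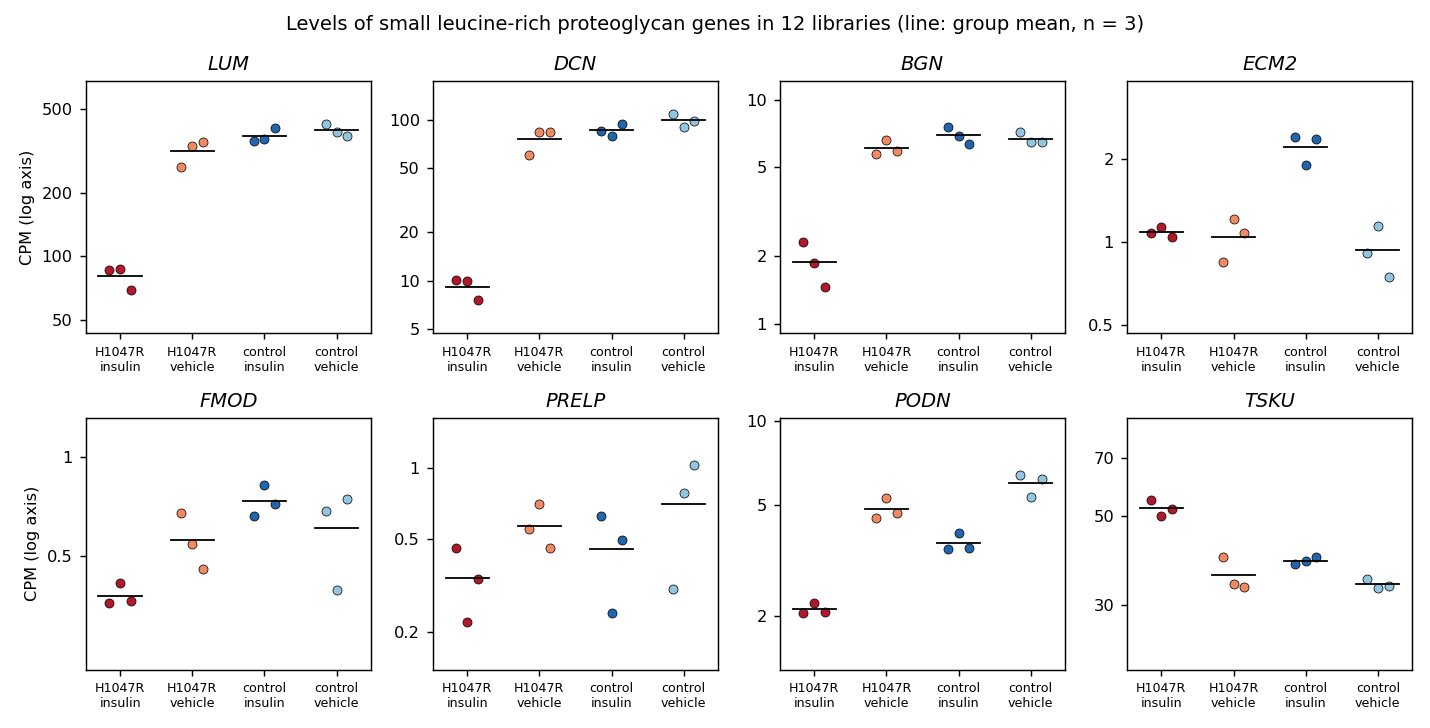
Levels of the 6 members in the fit and of the family members PODN and TSKU, in CPM on a log axis that differs between panels. Each point is 1 of 12 libraries and each line a group mean (n = 3). LUM, DCN and BGN lie lowest in the 3 libraries of H1047R cells with insulin, and ECM2 lies highest in the 3 libraries of control cells with insulin.

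Decorin, which binds type I collagen fibrils and TGF-β, was far lower in H1047R cells with insulin than in the other groups. DCN was 10.1, 9.90 and 7.55 CPM in H1047R cells with insulin, 61.0, 84.7 and 83.8 CPM in H1047R cells with vehicle, 86.0, 79.1 and 94.2 CPM in control cells with insulin and 109.5, 91.2 and 98.9 CPM in control cells with vehicle. The libraries of H1047R cells with insulin did not overlap any other group. H1047R vehicle replicate 1, the library with the highest PIK3CA of its group, had the lowest DCN outside them. That is 1 library, and a link between PIK3CA level and DCN was not tested. Replicates 2 and 3 of that group, at 180 and 215 CPM of PIK3CA, had 84.7 and 83.8 CPM of DCN. DCN was 8.38-fold lower in H1047R cells with insulin than in H1047R cells with vehicle (log2 fold change -3.07 ± 0.097, SE). In control cells the insulin difference was -0.21 ± 0.076 on the log2 scale, and 2 of 3 libraries with insulin lay below all libraries with vehicle. The ranges of H1047R cells with vehicle and control cells with insulin overlapped, as did those of control cells with insulin and with vehicle. In RNA from whole cultures, fewer cells that express a gene and less of its RNA per cell cannot be told apart.

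Lumican, a keratan sulfate proteoglycan that regulates collagen fibril assembly, had the same order of groups as decorin. LUM was 86.0, 86.8 and 69.1 CPM in H1047R cells with insulin, 267, 336 and 349 CPM in H1047R cells with vehicle, 353, 364 and 409 CPM in control cells with insulin and 427, 392 and 375 CPM in control cells with vehicle. As with DCN, the 3 libraries of H1047R cells with insulin were below the other 9. LUM was 3.94-fold lower with insulin than with vehicle in H1047R cells (log2 fold change -1.98 ± 0.071), against -0.09 ± 0.066 in control cells.

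Biglycan, a close relative of decorin and a known ligand of toll-like receptors, was read at a lower level. BGN was 2.32, 1.87 and 1.45 CPM in H1047R cells with insulin, 5.73, 6.58 and 5.88 CPM in H1047R cells with vehicle, 7.56, 6.87 and 6.33 CPM in control cells with insulin and 7.16, 6.46 and 6.44 CPM in control cells with vehicle. The other 9 libraries were all at 5.73 CPM or more, and the means of their groups were between 6.06 and 6.92 CPM. BGN was 3.27-fold lower with insulin than with vehicle in H1047R cells (log2 fold change -1.71 ± 0.14), against 0.05 ± 0.11 in control cells. HAUS7, which overlaps the start of BGN, was read at 0.303 ± 0.0743 CPM in H1047R cells with insulin and 0.499 ± 0.329 CPM in H1047R cells with vehicle (SD, n = 3 each).

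ECM2, a matrix protein with leucine-rich repeats encoded next to asporin, went another way. Its level was 1.08, 1.13 and 1.04 CPM in H1047R cells with insulin, 0.842, 1.21 and 1.08 CPM in H1047R cells with vehicle, 2.39, 1.89 and 2.35 CPM in control cells with insulin and 0.914, 1.14 and 0.747 CPM in control cells with vehicle. Control cells with insulin lay above the other 3 groups without overlap. The log2 fold change with insulin was 0.05 ± 0.23 in H1047R cells and 1.21 ± 0.22 in control cells, that is 2.32-fold higher with insulin in control cells. Summed over its 3 libraries, ECM2 had 114, 77, 182 and 72 counts in these groups, so the values rest on few reads.

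Fibromodulin, which binds collagen at the lumican site, and PRELP, which anchors basement membranes to connective tissue, were near the detection limit. FMOD was 0.359 to 0.413 CPM in H1047R cells with insulin, 0.456 to 0.674 CPM in H1047R cells with vehicle, 0.661 to 0.825 CPM in control cells with insulin and 0.393 to 0.747 CPM in control cells with vehicle. PRELP was 0.220 to 0.457, 0.456 to 0.701, 0.241 to 0.624 and 0.305 to 1.03 CPM in the same order. For FMOD the libraries of H1047R cells with insulin lay below those of H1047R cells with vehicle and of control cells with insulin, and for PRELP all groups overlapped. The insulin difference in H1047R cells was -0.55 (95% interval -1.36 to 0.25) for FMOD and -0.77 (-1.72 to 0.18) for PRELP on the log2 scale, so no difference was detectable at this depth.

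The comparison of insulin with vehicle in H1047R cells had 3 of the 6 members past a Benjamini-Hochberg FDR of 0.001 in edgeR, all lower (DCN, LUM and BGN). Of all genes in the fit, 9.80% were called lower and 9.85% higher there. The median log2 fold change was -1.24 over the 6 members and -0.00061 over all genes. With insulin in both, H1047R cells had 4 members past the threshold relative to control cells, all lower, beside 12.0% of all genes called lower and 11.4% called higher. DCN was 9.45-fold, LUM 4.66-fold, BGN 3.73-fold and ECM2 2.04-fold lower, with log2 fold changes of -3.24 ± 0.096, -2.22 ± 0.071, -1.90 ± 0.13 and -1.03 ± 0.2. FMOD (-0.95 ± 0.32) and PRELP (-0.43 ± 0.42) did not pass. Since the set was selected on these values, nothing is read from the counts.

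Insulin in control cells had 1 member past the threshold, ECM2, beside 0.483% of all genes called higher and 1.15% called lower. That count was 0 with DESeq2, and also 0 on leaving out replicate 1 or replicate 3 of either control group. H1047R with vehicle, compared with control cells with vehicle, had 0 members past the threshold by edgeR and by DESeq2. This does not show that the members were unchanged. Of all genes, edgeR called 0.141% higher and 0.0176% lower there. DCN and LUM there were -0.38 ± 0.078 and -0.33 ± 0.066 on the log2 scale. The count became 1 without H1047R vehicle replicate 2 and 2 without H1047R vehicle replicate 3.

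The insulin effects in H1047R and control cells were compared as a difference of log2 fold changes, which was -2.86 ± 0.12 for DCN, -1.89 ± 0.096 for LUM and -1.76 ± 0.18 for BGN. These 3 members were past the threshold, beside 4.49% of all genes called lower and 4.58% called higher, and since they were selected on these libraries nothing is read from that count either. ECM2 had a difference of -1.17 ± 0.32, FMOD of -0.85 ± 0.47 and PRELP of -0.15 ± 0.57, none past the threshold. The comparisons share libraries, so their values for a gene are not independent of each other. Mean PIK3CA was 721 CPM with insulin and 235 CPM with vehicle in H1047R cells, and 82.6 and 88.6 CPM in control cells. Insulin and PIK3CA level therefore cannot be told apart in this difference.

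**Figure D2:**
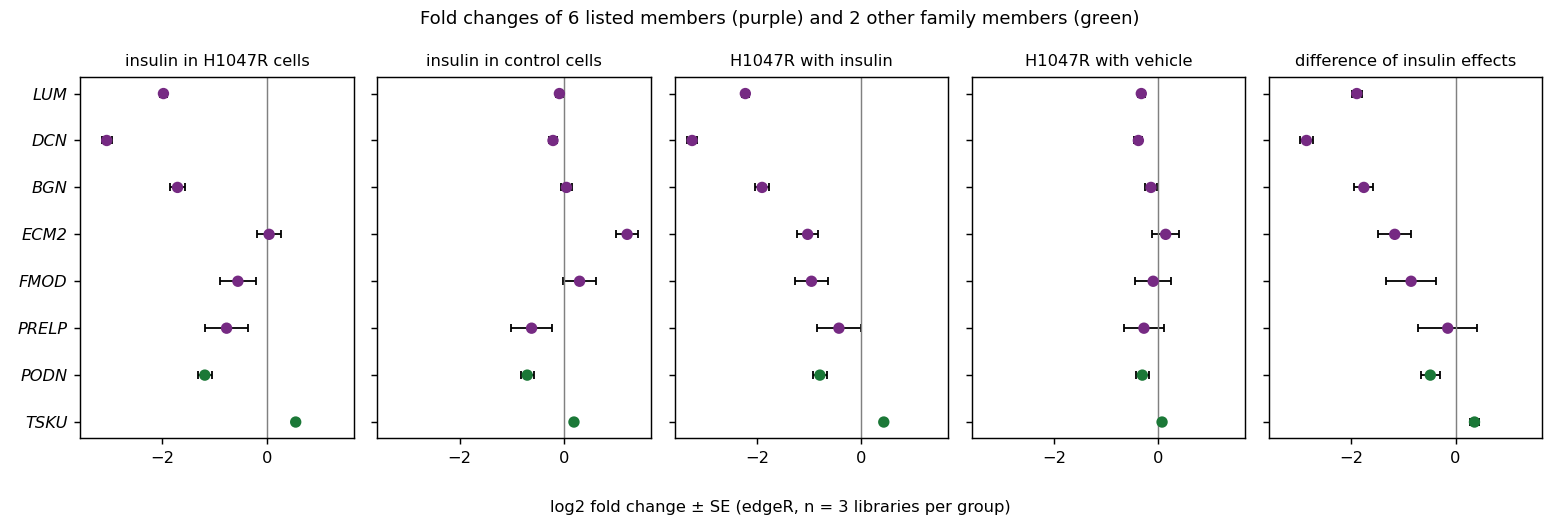
Log2 fold changes with SE (edgeR, 3 libraries per group) of the 6 members in the fit, in purple, and of PODN and TSKU, in green, in the 5 comparisons. DCN, LUM and BGN lie far left of 0 in the 3 panels that involve H1047R cells with insulin, at -1.71 or lower, whereas ECM2 lies right of 0 for insulin in control cells, at 1.21.

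DCN and LUM differed in size of change, which is seen in the ratio of their counts within a library. LUM had 8.49, 8.76 and 9.16 counts per DCN count in H1047R cells with insulin, against 3.97 to 4.37 in H1047R cells with vehicle, 4.10 to 4.60 in control cells with insulin and 3.80 to 4.30 in control cells with vehicle. The mean ratio was 8.80 ± 0.338 in H1047R cells with insulin and 4.17 ± 0.201 in H1047R cells with vehicle (SD, n = 3 each). Because both counts come from 1 library, the ratio does not depend on library scaling. The summed level of the 9 members was 93.5 ± 11.8 CPM in H1047R cells with insulin, 402 ± 57.8 CPM in H1047R cells with vehicle, 472 ± 35.8 CPM in control cells with insulin and 507 ± 33.6 CPM in control cells with vehicle. LUM made up 85.7 to 86.6% of that sum in H1047R cells with insulin and 77.7 to 80.3% in the other libraries.

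**Figure D3:**
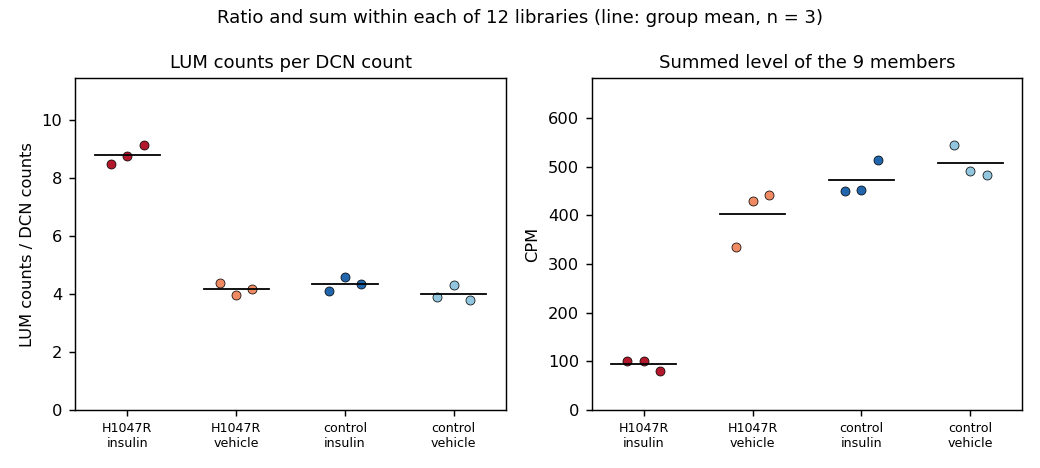
LUM counts per DCN count (left) and the summed CPM of the 9 members (right) in each of 12 libraries, with lines at the group means (n = 3) and both axes from 0. The 3 libraries of H1047R cells with insulin lie at 8.49 or more counts of LUM per DCN count and at 100.3 CPM or less in the sum.

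Genes with a pattern like that of LUM were ranked by Pearson correlation of log2(CPM + 0.5) over the 12 libraries, among 13301 genes. The 5 highest were COL3A1 (r = 0.998), DCN (0.998), FSTL1 (0.997), SNRPD3 (0.997) and ENSG00000286190 (0.996). BGN ranked 66 with r = 0.984, and ECM2 ranked 5991 with r = 0.254. The points share libraries and 4 group levels, so these coefficients describe likeness only.

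The 9 other genes of the family served as a comparison, of which 4 were in the fit. KERA, EPYC and OPTC, which lie in the clusters of LUM and PRELP, had 1 or 2 counts over all 12 libraries, CHAD had 6, and NYX, which encodes nyctalopin of the retina, had 0. PODN, podocan, a collagen-binding member, was 2.06, 2.23 and 2.07 CPM in H1047R cells with insulin, 4.50, 5.30 and 4.68 CPM in H1047R cells with vehicle, 3.49, 3.99 and 3.52 CPM in control cells with insulin and 6.43, 5.35 and 6.21 CPM in control cells with vehicle. The 4 groups did not overlap, and H1047R and control cells with vehicle lay closest to each other. PODN fell with insulin in H1047R cells (log2 fold change -1.19 ± 0.14, adjusted p = 1.95e-09, edgeR) and in control cells (-0.70 ± 0.12, adjusted p = 0.00013). In control cells its adjusted p was 0.0028 without control vehicle replicate 1, 0.00122 without control vehicle replicate 3, 0.00171 without control insulin replicate 1 and 0.00157 without control insulin replicate 3, all above 0.001. The difference of its insulin effects, -0.48 ± 0.18, had an adjusted p of 0.056.

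TSKU, tsukushi, a secreted member that binds BMPs and other signalling proteins, moved in the opposite direction. TSKU was 55.0, 50.2 and 52.1 CPM in H1047R cells with insulin, 39.7, 34.0 and 33.3 CPM in H1047R cells with vehicle, 38.1, 38.6 and 39.6 CPM in control cells with insulin and 34.9, 33.2 and 33.6 CPM in control cells with vehicle. Its 3 libraries of H1047R cells with insulin were above the other 9. TSKU rose with insulin in H1047R cells (log2 fold change 0.56 ± 0.057, adjusted p = 1.2e-10, edgeR), and was 0.19 ± 0.059 with an adjusted p of 0.045 in control cells. PODNL1 and CHADL, the remaining family members in the fit, were called in none of the 5 comparisons.

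The enzymes that build glycosaminoglycan chains were mixed in direction. Of 27 tested genes of chondroitin and dermatan sulfate synthesis, 4 rose and 7 fell with insulin in H1047R cells (median log2 fold change -0.011). Beside this and the lists below, 9.85% of all genes in the fit were called higher there and 9.80% lower. These lists, like the members, were chosen with earlier results of these data known. Their counts past the threshold are therefore a description. CHST11, a chondroitin sulfotransferase, rose (1.08 ± 0.16, adjusted p = 7.65e-07, edgeR) and so did CHPF, a chondroitin polymerizing factor (0.41 ± 0.071, adjusted p = 9.22e-06). B3GALT6, which adds a galactose of the linker between core protein and chain, fell (-0.51 ± 0.068, adjusted p = 5.2e-08), as did PXYLP1, the phosphatase that acts on the linker xylose (-0.46 ± 0.068, adjusted p = 6.53e-07). In control cells insulin changed 0 of the 27 by edgeR and by DESeq2, with 3 at an unadjusted p below 0.05. Over all genes, edgeR called 0.483% higher and 1.15% lower with insulin in control cells.

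Of 9 tested genes of keratan sulfate synthesis, 3 rose and 1 fell with insulin in H1047R cells (median 0.011). FUT8, the core fucosyltransferase (0.47 ± 0.047, adjusted p = 6.23e-11, edgeR), CHST2, a sulfotransferase (0.64 ± 0.09, adjusted p = 1.77e-07), and B3GNT2, which extends the lactosamine chain (0.37 ± 0.059, adjusted p = 2.41e-06), rose. CHST6, the corneal sulfotransferase, fell (-1.11 ± 0.25, adjusted p = 0.000416, edgeR). Its adjusted p was 0.00102 in DESeq2 and 0.00139 in edgeR with only the groups compared. It was 0.00737 and 0.00199 without H1047R vehicle replicates 1 and 2, and 0.0023 and 0.00314 without H1047R insulin replicates 1 and 2. CHST6 was low, at 0.593 CPM and 63 counts in H1047R cells with insulin and 1.29 CPM and 95 counts with vehicle. In control cells insulin changed 0 of the 9 by edgeR and by DESeq2, with 2 at an unadjusted p below 0.05.

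Other proteoglycans moved in both directions, with 6 of 26 higher and 5 lower with insulin in H1047R cells (median 0.12). NRP1, neuropilin, a co-receptor that can carry chains, rose (0.92 ± 0.042, adjusted p = 1.09e-20, edgeR), as did SPOCK1, testican (0.71 ± 0.039, adjusted p = 2.63e-18). SDC2, syndecan-2, fell (-0.78 ± 0.07, adjusted p = 3.74e-12), as did HSPG2, perlecan of the basement membrane (-0.63 ± 0.045, adjusted p = 7.21e-15). In control cells 1 of the 26 rose and 2 fell with insulin, HSPG2 among them (-0.32 ± 0.045, adjusted p = 2.54e-06).

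Among proteases and collagen cross-linking enzymes 3 of 21 rose and 6 fell with insulin in H1047R cells (median -0.092). MMP1, an interstitial collagenase, was 7.52-fold higher (log2 fold change 2.91 ± 0.28, adjusted p = 2.13e-11, edgeR). That fold rests on a low base, 0.492 CPM and 36 counts in H1047R cells with vehicle, against 3.72 CPM and 391 counts with insulin. TLL1, a protease of the BMP1 family that processes procollagen (-1.54 ± 0.12, adjusted p = 1.04e-13), ADAMTS5, an aggrecanase (-1.53 ± 0.098, adjusted p = 2.65e-16), and MMP2, a gelatinase (-0.89 ± 0.05, adjusted p = 6.5e-18), fell. In control cells 0 rose and 2 fell, ADAMTS5 (-0.51 ± 0.086, adjusted p = 7.26e-05; 0.00163 without control vehicle replicate 2, 0.00103 without control vehicle replicate 3 and 0.00263 without control insulin replicate 2) and MMP2, whose call (-0.24 ± 0.048, adjusted p = 0.000809) was lost on leaving out any library of that comparison but control vehicle replicate 1 (0.00111 to 0.0243).

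Of 24 tested binding partners and receptors, 5 rose and 8 fell with insulin in H1047R cells (median -0.076). ITGA2, the collagen-binding integrin chain, rose (1.70 ± 0.056, adjusted p = 5.7e-25, edgeR), and MET, a receptor to which decorin binds, rose too (0.89 ± 0.049, adjusted p = 2.2e-18). TLR2, a receptor of biglycan, rose (1.10 ± 0.21, adjusted p = 5.4e-05), with an adjusted p of 0.00101 without H1047R vehicle replicate 2. TGFB2, the growth factor, fell (-0.78 ± 0.071, adjusted p = 5.6e-12). In control cells 0 rose and 7 fell, ITGA2 among them (-0.36 ± 0.062, adjusted p = 9.72e-05; 0.00186 without control vehicle replicate 2 and 0.00374 without control insulin replicate 3).

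The list of collagens had 7 of 13 genes lower and 0 higher with insulin in H1047R cells (median -0.50). This list too was chosen with earlier results known, so its count is a description. COL3A1 was 909 ± 27.6 CPM in H1047R cells with insulin and 1951 ± 114 CPM in H1047R cells with vehicle (SD, n = 3 each), a log2 fold change of -1.10 ± 0.039 (adjusted p = 5.4e-24, edgeR). COL1A2 (-0.91), COL5A2 (-0.79), COL12A1 (-0.62) and COL1A1 (-0.50) fell as well. In control cells 1 of the 13 fell and 0 rose with insulin.

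**Figure D4:**
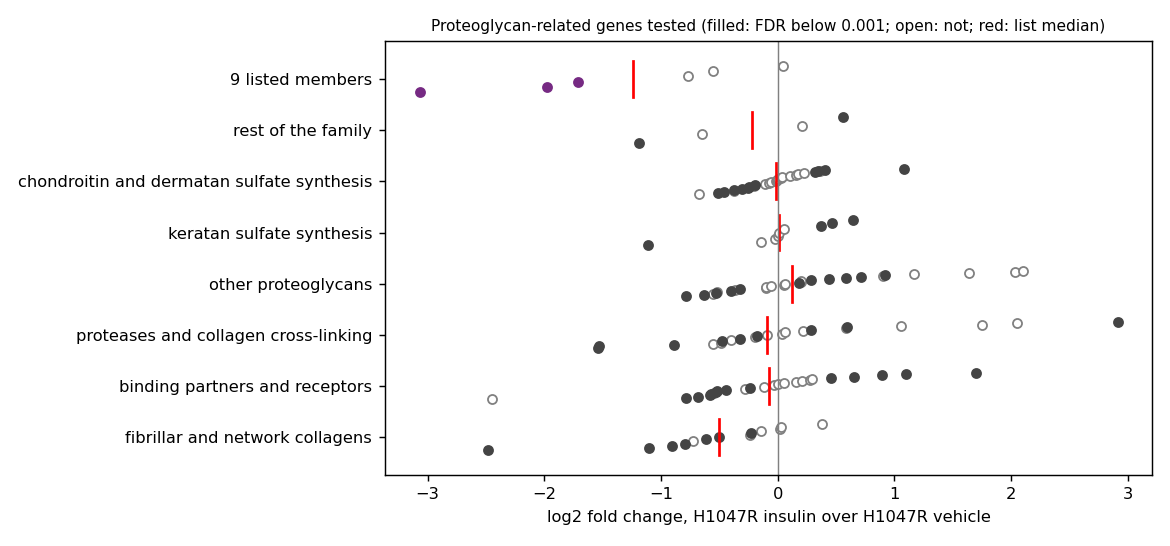
Log2 fold changes of the tested genes of each list for insulin against vehicle in H1047R cells. Filled points passed an FDR of 0.001 and open points did not, and red lines mark list medians. The members' median lies at -1.24 and that of the collagens at -0.50. Every list has points on both sides of 0, ECM2 (0.05) among the members and COL6A3 (0.38, not called) among the collagens.

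H1047R with vehicle changed 0 genes of any related list by edgeR or DESeq2, with 0 to 9 genes per list at an unadjusted p below 0.05. Over all genes, only 0.141% were called higher and 0.0176% lower there by edgeR. In the comparison that follows, 11.4% of all genes were called higher and 12.0% lower. With insulin in both, H1047R cells had 5 higher and 7 lower of the 27 chondroitin and dermatan sulfate genes, 3 and 1 of the 9 keratan sulfate genes, 7 and 6 of the 26 other proteoglycans, 3 and 5 of the 21 proteases and cross-linking enzymes, 10 and 5 of the 24 partners and receptors, and 1 and 9 of the 13 collagens.

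Markers of other cell types were read beside these genes. The summed level of the 10 stromal markers was 6207 to 6446 CPM in H1047R cells with insulin, 7988 to 8192 CPM in H1047R cells with vehicle, 7950 to 8290 CPM in control cells with insulin and 8284 to 8392 CPM in control cells with vehicle. With insulin in H1047R cells 7 of the 10 fell and 2 rose. COL1A1, COL1A2 and COL3A1, which are also in the collagen list, were among those that fell. Their group means were 2822, 544 and 1951 CPM with vehicle and 1995, 291 and 909 CPM with insulin. VIM went the other way, from 2043 to 2292 CPM, and NT5E, which encodes CD73, rose (1.41 ± 0.073, adjusted p = 3.9e-19, edgeR). The sum is weighted to its most abundant genes, COL1A1, COL3A1 and VIM. The 10 epithelial markers summed to 3282 to 3300 CPM in H1047R cells with insulin and 2919 to 3257 CPM in the other libraries, and KRT19 rose (0.24) and KRT7 fell (-0.30) with insulin in H1047R cells. Endothelial, leukocyte and smooth muscle markers summed to at most 9.57, 6.52 and 4.30 CPM in any library, and of them only VWF was called with insulin in H1047R cells (0.92). CD3E had 0 counts in all libraries, and group means of PECAM1, CD68, MYH11 and DES were at most 0.451 CPM. The part of these markers in the lower levels of DCN, LUM and BGN was not tested.

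Genes outside the family that adjoin or overlap the 9 members were called higher or not called with insulin in H1047R cells. BTG1, the next protein-coding gene beyond DCN at a distance of 957061 bases, rose with insulin in H1047R cells (0.66 ± 0.058, adjusted p = 3e-12, edgeR). BTG2, 31026 bases from FMOD, rose as well (0.64 ± 0.074, adjusted p = 3e-09), as did IPPK beyond ECM2 (0.50 ± 0.06, adjusted p = 7.5e-09). CENPP, HAUS7, TREX2, ATP2B3 and NOL8, the gene beside OGN, were not called in that comparison.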

How the data were processed

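RNA-seq of 12 libraries was analysed from raw gene counts, which the authors deposited without normalization as STAR wrote them. Per the labels and methods, reads were trimmed with cutadapt and Trim Galore and aligned to hg38, and only reads with a single site are counted. Tool versions are not given in the sources read, and the annotation release that the methods name is a mouse release, so the human release used for counting is not known. Reverse-strand counts, as in the study, held 93.5 to 93.7% of strand-specific counts, and rows without a gene stayed out, among them 8.48 to 15.4% of reads placed at several sites.

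The filter was an average of 1 count or more per library. Counts were fitted with edgeR 4.0.16 (quasi-likelihood test, R 4.3.3) after TMM scaling, with 1 coefficient per group, all 12 libraries and 8 residual degrees of freedom. Calls used a Benjamini-Hochberg FDR below 0.001 over all 22756 genes. Every adjusted p in the text is from this fit unless DESeq2 (1.42.0), a library left out or another alternative is named. Each alternative was fitted anew, with its own adjustment. The SE is the absolute log2 fold change over the square root of F. The members and lists were chosen with earlier results of these data known. All 9 members were named; of each related list, called genes averaging 1 CPM or more were named, the 4 with the largest change with insulin in H1047R cells, together with neighbours of members and the family by level. Other genes were named after their values were seen. No pairing of libraries by replicate number was seen, and none was used in the main fit. Alternatives were RLE or no scaling, DESeq2, other count filters, unstranded counts, the replicate number as a block, only the groups compared, and each library left out. Replicates differed by more than counting noise.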

Additional observations from a re-analysis of the deposited data

Results flagged for a closer look

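The insulin effect in H1047R cells minus that in control cells is given here as a difference of log2 fold changes. In H1047R cells, insulin cannot be told apart from the higher PIK3CA level of the libraries with insulin. The difference was -2.86 for DCN, -1.89 for LUM and -1.76 for BGN, which were selected on these data. These values are a description and no test of them is used.

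For the related genes named next, the 2 insulin effects differed by the test of the difference itself (edgeR, FDR below 0.001). The difference was 0.36 for TSKU, a family member. Among genes of chain synthesis it was 1.19 for CHST11, 1.04 for CHST2, 0.41 for FUT8, -0.46 for B3GALT6, -0.54 for PXYLP1 and -1.67 for CHST6. CHST6 was low, with group means from 0.593 CPM in H1047R cells with insulin to 1.95 CPM in control cells with insulin. Other proteoglycans had 0.94 for NRP1, 0.88 for SPOCK1, -0.31 for HSPG2 and -1.04 for SDC2. Proteases had -1.42 for TLL1, -1.02 for ADAMTS5 and -0.65 for MMP2. Among partners and receptors it was 2.05 for ITGA2, 0.82 for MET and -0.60 for TGFB2. Collagens had -1.05 for COL3A1, -0.87 for COL1A2, -0.65 for COL5A2, -0.55 for COL12A1 and -0.53 for COL1A1. The stromal marker NT5E had 1.90. ITGA2 and NT5E were called in opposite directions in the 2 cell states, higher with insulin in H1047R cells and lower in control cells.

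The difference for TSKU was lost, with an adjusted p of 0.00125 to 0.00495, when any library was left out other than H1047R vehicle replicate 1 and H1047R insulin replicate 2. For CHST11 the adjusted p was 0.00397 on leaving out control vehicle replicate 3, 0.00116 on leaving out control insulin replicate 2 and 0.00232 on leaving out H1047R vehicle replicate 2. For HSPG2 it was 0.00152 and 0.00103 on leaving out replicate 1 of the control vehicle or control insulin group, and 0.00151 and 0.0023 on leaving out replicate 2 of the H1047R vehicle or H1047R insulin group. For B3GALT6 it was 0.00153 and 0.00114 on leaving out control vehicle replicates 2 and 3, 0.00142 and 0.00216 on leaving out control insulin replicates 2 and 3, and 0.00289 and 0.00215 on leaving out replicate 2 of the H1047R vehicle or H1047R insulin group.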

How the results depend on the processing

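No result changed sign past its threshold under the alternatives run. The 3 members lower with insulin in H1047R cells, the 4 lower in H1047R cells with insulin against control cells with insulin, and the 3 in the difference kept these counts under every alternative, and leaving out 1 library gave -3.18 to -2.94 for DCN, -2.06 to -1.88 for LUM and -1.87 to -1.54 for BGN in the first of these. The member called with insulin in control cells was 0 with DESeq2, and 0 to 1 over the libraries left out. For H1047R with vehicle, no filter on low counts gave 2 members and 4 related genes in place of 0 and 0, and leaving out a library gave 0 to 2 members and 0 to 2 related genes. With the replicate number as a block, that comparison had 1 related gene, and the counts of members stayed 3 for insulin in H1047R cells, 1 for insulin in control cells, 4 for H1047R with insulin, 0 for H1047R with vehicle and 3 for the difference. No pairing by replicate number was seen, though with 3 libraries per group a weak one could be missed. Of 18 pairs, 1 correlated above 0.1 (range -0.078 to 0.10), and 3 of 12 libraries correlated best with their own number. In the same order of comparisons, counts of related genes were 66 (57 to 67 when a library was left out), 17 (12 to 14), 70 (63 to 67), 0 (0 to 2) and 46 (40 to 50). For single related genes, 58 of 1375 values lost the threshold. MMP2 with insulin in control cells was lost under the block (0.00111) and with each library of that comparison left out but control vehicle replicate 1 (up to 0.0243), ADAMTS5 and NT5E there with DESeq2 (0.00575 and 0.007). FMOD, PRELP and ECM2 have few counts, and depth limits what can be seen of them.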
